A study of Caenorhabditis elegans with 2 samples.

Results

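The genes described here encode the proteins of the cytosolic ribosome of Caenorhabditis elegans. They were taken by name, as every protein-coding gene of the WBcel235 annotation whose name starts with rpl- (large subunit), rps- (small subunit) or rla- (the acidic stalk of the large subunit). This gave 81 genes of 19973, made up of 47 rpl-, 31 rps- and 3 rla- genes. At these genes the chromatin binding of SET-16 was mapped by chromatin immunoprecipitation and sequencing (ChIP-seq) in whole L4 larvae, 48 hours old, which had been synchronised by starving newly hatched larvae after bleaching. All animals were of strain RW12223 and carried the allele st12223[set-16::TY1::EGFP::3xFLAG], a CRISPR insertion that adds TY1, EGFP and 3xFLAG tags to the endogenous set-16 gene. Sonicated chromatin was precipitated with an antibody against GFP. An untagged or wild-type group is not part of the comparison, and whole animals give a mixture of all tissues. The data are 2 biological replicates of 1 group, there is no contrast between conditions, and no p-value is given. The labels point to a matched control, which was not used here.

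Ribosomal proteins surround the ribosomal RNA that decodes messenger RNA and joins amino acids, and each ribosome needs about equal numbers of most of them. Their genes are short, rich in preferred codons and among the most strongly expressed of growing animals, and in nematodes many of their messages start with a spliced leader, so that an annotated gene start is often the splice site and not the point where transcription begins. SET-16 is the worm relative of the mammalian MLL3 and MLL4 enzymes, which methylate lysine 4 of histone H3 and are best known at enhancers and promoters.

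Peaks were read from the authors' peak lists. A thresholded list holds peaks that met a limit on their reproducibility, and a ranked list holds all candidate peaks before that limit. The conservative list rests on both replicates and held 5795 peaks, the thresholded list of replicate 1 held 5876 and that of replicate 2 held 4377. A peak was assigned to a gene when its summit, the point of highest enrichment, lay between 1000 bp upstream of the annotated start and the gene end. Each peak has a signal in the units of the authors' peak caller, on a scale that the sources used here do not give, so levels are compared within a list, and a ratio between the replicates is read against the same ratio over all peaks. The lists hold no read counts and the depth of the libraries is unknown.

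SET-16 peaks were more frequent at cytosolic ribosomal protein genes than at genes in general. A conservative summit was found at 40 of the 81 genes, or 49.4% (95% exact Clopper-Pearson interval 38.1 to 60.7, counting error only), where 17.2% of all protein-coding genes had one. In the list of replicate 1 the count was 33 genes (40.7%, background 17.4%), and in the list of replicate 2 it was 36 genes (44.4%, background 14.2%). The share thus lay above the background in each replicate. The difference was smaller for conservative summits that lay in no other gene's window. By that rule 17 genes (21%) had a summit, where 12.8% of all protein-coding genes had one. The second whole-series list, made from the same libraries, gave 48 genes (59.3%, background 19.9%). In the ranked lists, which hold weaker candidates, 75 of the genes had a summit in replicate 1 and 77 in replicate 2, or 92.6% and 95.1%, where the background was 43.9% and 46.6%. The ranked list that goes with the conservative list gave 76 (93.8%, background 41.6%). The genes rpl-34 and rpl-25.2 were in neither ranked list.

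The height of the peaks relative to other genes depended on the list. Among the 40 genes the median signal of the highest conservative peak was 163.9, and over all 3433 protein-coding genes with a conservative summit it was 209.8. In the ranked lists the order was the other way round, with medians of 39.17 against 29.9 in replicate 1, 60.54 against 42.44 in replicate 2 and 104.1 against 71.98 in the list that goes with the conservative one. Ribosomal protein genes differed from the other genes in length and base composition, which both moved with the share of genes called. Their median length was 754 bp, where that of all genes was 2027 bp, and the median GC content of their coding sequence was 53.6%, where that of all genes was 42.5%. Short genes were called less often in general. Of the genes from 500 to 1000 bp long, 24 of 53 ribosomal protein genes (45.3%) and 11.5% of all genes had a summit.

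GC content moved with the calls far more than length did. Each gene was placed in a class by the GC content of the richest stretch in its window, measured 100 bp to each side of a point. In the class from 55 to 60% GC, 20 of 27 ribosomal protein genes (74.1%) and 65% of all genes had a summit. In the class from 50 to 55%, the shares were 14 of 36 (38.9%) and 15.1%. In the class from 45 to 50%, they were 4 of 14 (28.6%) and 1.19%. The difference from the background was thus small in the GC-rich class and larger in the classes with less GC, where the counts of ribosomal protein genes are low. What GC content contributes to the calls was not tested.

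**Figure D1:**
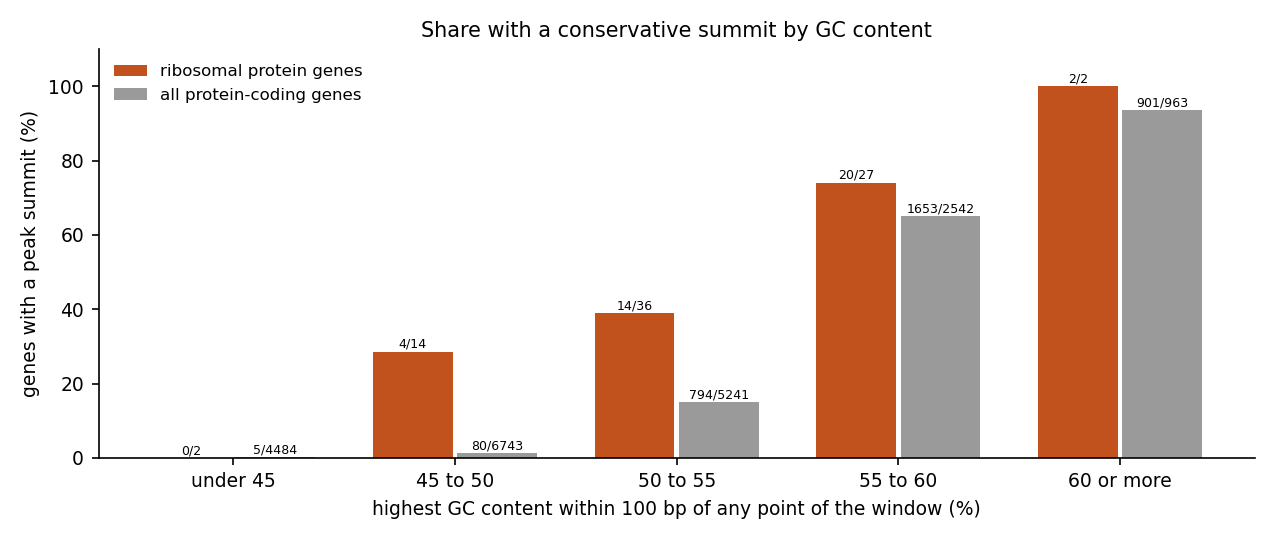
Share of genes with a conservative SET-16 summit (vertical axis, percent) in classes by the richest stretch of the window in GC, measured 100 bp to each side of a point (horizontal axis, percent), for the 81 ribosomal protein genes and all 19973 protein-coding genes. The fractions above the bars are genes with a summit over genes in the class; the bars are nearly level from 55 to 60% GC (74.1% and 65%) and apart from 45 to 50% (28.6% and 1.19%).

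Genes with related functions were called to different degrees. Of the 70 genes for mitochondrial ribosomal proteins, 8 had a conservative summit (11.4%, interval 5.07 to 21.3), an interval that takes in the background share. Of 40 translation factor genes, 18 had one (45%, interval 29.3 to 61.5), a share that overlaps with that of the cytosolic ribosomal protein genes. Of 32 tRNA synthetase genes, which charge tRNAs with amino acids, 4 had one (12.5%, interval 3.51 to 29), and 6 (18.8%) in replicate 1 and 9 (28.1%) in the second whole-series list, so that this count lay below or above the background of its list. Of 36 genes for ribosome biogenesis, 13 had one (36.1%, interval 20.8 to 53.8). No test was made between lists. The intervals cover counting error only and count genes as separate, although neighbours can share a summit. The highest peaks of these lists lay at eef-1B.2 (562.5), eef-1A.2 (508.8) and eef-1B.1 (421.1) among elongation factors and other translation factors, at garr-1 (982.5), ncl-1 (699.4) and lpd-6 (661.7) among biogenesis genes, at mrps-25 (559.5), mrpl-37 (310.5) and mrps-21 (195) among mitochondrial ribosomal protein genes, and at qars-1 (332.9), ears-2 (212.8) and nars-2 (148.4) among tRNA synthetase genes. At the 3 mitochondrial genes the summits lay 979, 649 and 977 bp upstream. The genes ubl-1, whose product is a fusion of ubiquitin-like and ribosomal protein, and rack-1, a protein of the small subunit, belong to the ribosome but are not taken by the name rule. Both had a summit in the coding sequence, with signals of 148.4 and 210.2.

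**Figure D2:**
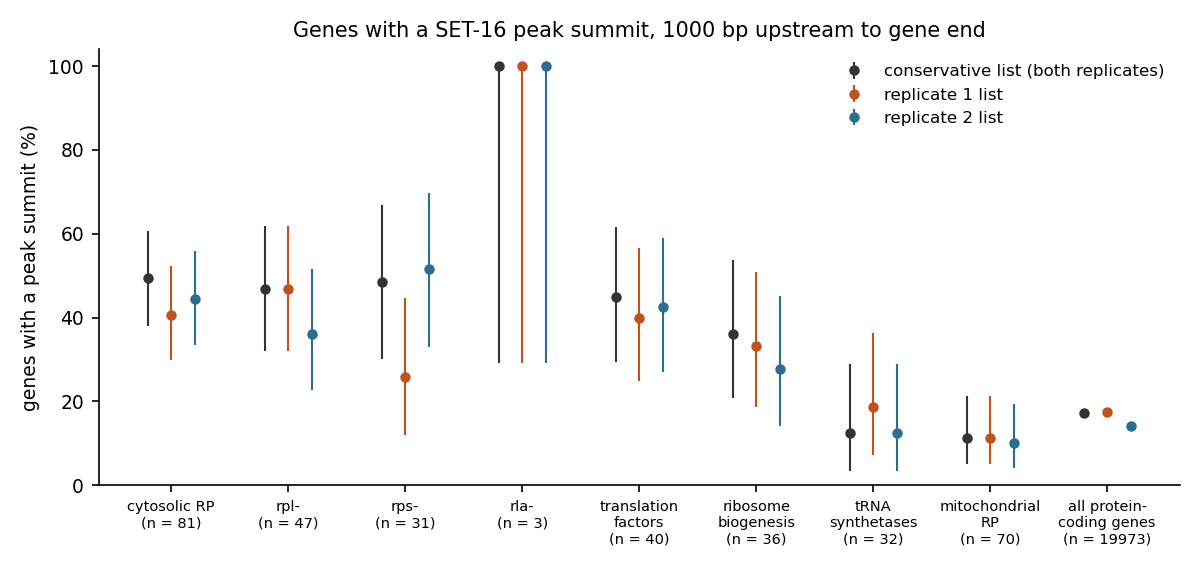
Share of genes with a SET-16 peak summit from 1000 bp upstream to the gene end (vertical axis, percent) for each gene list, in the conservative list and in the list of each replicate. Points are shares and bars are 95% exact Clopper-Pearson intervals (counting error only); the rps- genes stand at 25.8% in replicate 1 and 51.6% in replicate 2, while the mitochondrial ribosomal protein (RP) genes stand between 10% and 11.4% in the 3 lists.

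The highest peaks lay at the stalk genes. All 3 rla- genes had a summit in the conservative list and in both replicate lists, and they held the highest 3 signals of the 81 genes. The stalk they encode reaches out from the large subunit and recruits the GTPase factors of translation. rla-1, for one of the acidic stalk proteins, had a conservative signal of 1378, with 866.3 in replicate 1 and 512 in replicate 2. rla-2, for the other acidic protein, had 796.5, with 558.6 and 239. rla-0, for the base of the stalk, had 762.8, with 480 and 285.6. All 3 summits lay in coding exons in the later part of the gene, 330, 644 and 956 bp past the start. With 3 genes, the exact interval of this share runs from 29.2 to 100%, and the genes were ranked by the same signals that are given here.

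Among large subunit genes 22 of 47 had a conservative summit (46.8%, background 17.2%). In replicate 1 it was 22 (46.8%, background 17.4%) and in replicate 2 it was 17 (36.2%, background 14.2%). rpl-7A followed the stalk genes with a signal of 576.6 (438.4 and 143.4 in replicates 1 and 2), at a coding exon 986 bp past the start. rpl-7, which despite its name encodes a different protein, had 536.5 (326.6 and 214.2), 330 bp upstream of the start. rpl-3, whose product reaches towards the site of peptide bond formation, had 477.5 (102.9 and 373.6), 287 bp upstream. The ratio of replicate 2 to replicate 1 was 3.63 at rpl-3, 0.656 at rpl-7 and 0.327 at rpl-7A, where its median over all conservative peaks was 0.768. rpl-41.2, for a very short basic peptide, had 398.8 (182.6 and 214.6), 263 bp upstream. rpl-43, for a zinc-binding protein, had 295.7 (206.2 and 91.7), 149 bp into the gene. rpl-15 had 240.6 (66.82 and 179), 383 bp upstream, and a second, lower summit in its coding sequence. rpl-17, for a protein that lines the exit tunnel of the nascent chain, had 237.7 (150.9 and 96.45), 155 bp into the gene. That ratio thus lay above the median of all peaks at rpl-3, rpl-41.2 and rpl-15 and below it at rpl-7, rpl-7A, rpl-43 and rpl-17.

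Small subunit genes depended on the replicate. Of the 31 rps- genes 15 had a conservative summit (48.4%, background 17.2%). In replicate 1 it was 8 (25.8%, background 17.4%) and in replicate 2 it was 16 (51.6%, background 14.2%). The exact interval of the replicate 1 share (11.9 to 44.6%) takes in the background of that list, and that of the replicate 2 share (33.1 to 69.8%) lies above its background. All 31 were present in both ranked lists, where 7322 of all 19973 protein-coding genes were. The highest signal was that of rps-6, the ribosomal protein phosphorylated by S6 kinase, with 281 (215.7 and 72.29), 849 bp into the gene. rps-19, whose human counterpart is mutated in Diamond-Blackfan anaemia, had 237.8 (36.47 and 205.1), 298 bp upstream. Of these 2 genes, rps-6 was called in replicate 1 alone and rps-19 in replicate 2 alone. The group as a whole was not split evenly. Upstream of the start, 1 rps- gene (3.23%, background 5.49%) had a summit in replicate 1 and 12 (38.7%, background 5.15%) had one in replicate 2.

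The other 28 genes with a conservative summit had lower signals. Those with summits in the gene alone were rpl-1, rpl-2, rpl-5, rpl-9, rpl-12, rpl-13, rpl-16, rpl-19, rpl-21, rpl-25.1, rpl-31, rpl-35, rpl-37, rps-2, rps-10, rps-12, rps-16, rps-20, rps-26 and rps-27. Their highest signals ran from 83.87 at rpl-2 to 202 at rpl-25.1. Those with a summit upstream alone were rps-1, rps-23, rps-24, rps-28 and rps-29, from 102.6 at rps-23 to 181.3 at rps-24. Those with both were rpl-11.2, rpl-20 and rps-15.

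The 2 replicates did not call the same genes. Both lists held 22 of the 81 genes (27.2%, where both held 11.9% of all genes). Replicate 1 alone held 11 (13.6%, background 5.44%) and replicate 2 alone held 14 (17.3%, background 2.24%). In neither list were 34 (42%, background 80.4%). Of the 22 genes in both lists, 21 also had a conservative summit, as did 2342 of the 2381 protein-coding genes in both lists. The exception among the 22 was rps-9. Genes without a conservative summit were called in replicate 1 alone at rpl-4, rpl-18, rps-14 and rps-22. They were called in replicate 2 alone at rpl-22, rpl-39, rps-4, rps-11, rps-18, rps-21 and rps-30. Of these, rpl-39 and rps-30 start in opposite directions from a common region and share 1 summit, with a replicate 2 signal of 97.05. Conversely, rpl-2, rps-1, rps-20, rps-23 and rps-27 had a conservative summit and a summit in neither replicate list. At rps-2 the highest peak of replicate 1, with a signal of 317.3, is not in the conservative list, where the gene's highest signal is 149.6.

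Genes whose names share a number, which does not make them copies of each other, were alike in some cases and differed in others. rpl-11.2, for a protein that binds the 5S ribosomal RNA, had 2 conservative summits, with signals of 186.8 in the gene and 93.37 upstream. Its paralog rpl-11.1 had none, and its highest ranked signals were 10.62 in replicate 1 and 26.61 in replicate 2. rpl-25.1 had a summit with a signal of 202, and rpl-25.2 had not even a ranked one. rpl-24.1 and rpl-24.2 had none, as did rpl-36 and rpl-36.A. rpl-41.1 had none, while rpl-41.2, its neighbour downstream on the same strand, had the summit given above. The sequences of the 2 rpl-41 genes were not compared here. The sources used here do not say how reads that fit more than 1 place were assigned, so that pair is uncertain.

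The 47 summits at these genes fell into 2 places. In all, 34 lay inside the gene, 32 of them in coding exons and 2 in introns (rps-10 and rpl-31), and 13 lay upstream of the start, outside any protein-coding gene. Coding exons thus held 68.1% of the summits, where they held 49% over all genes, and introns held 4.26%, where they held 25.3%. The ribosomal protein genes are shorter (median 754 bp, all genes 2027 bp), and the amount of exon and intron per gene was not taken into account. Summits lay inside 32 of the genes and upstream of 13, and 5 genes had both (rpl-3, rpl-11.2, rpl-15, rpl-20 and rps-15). Many of these genes have close neighbours: 9 of the 13 upstream summits and 17 of the 34 in genes also lay in the window of another gene.

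**Figure D3:**
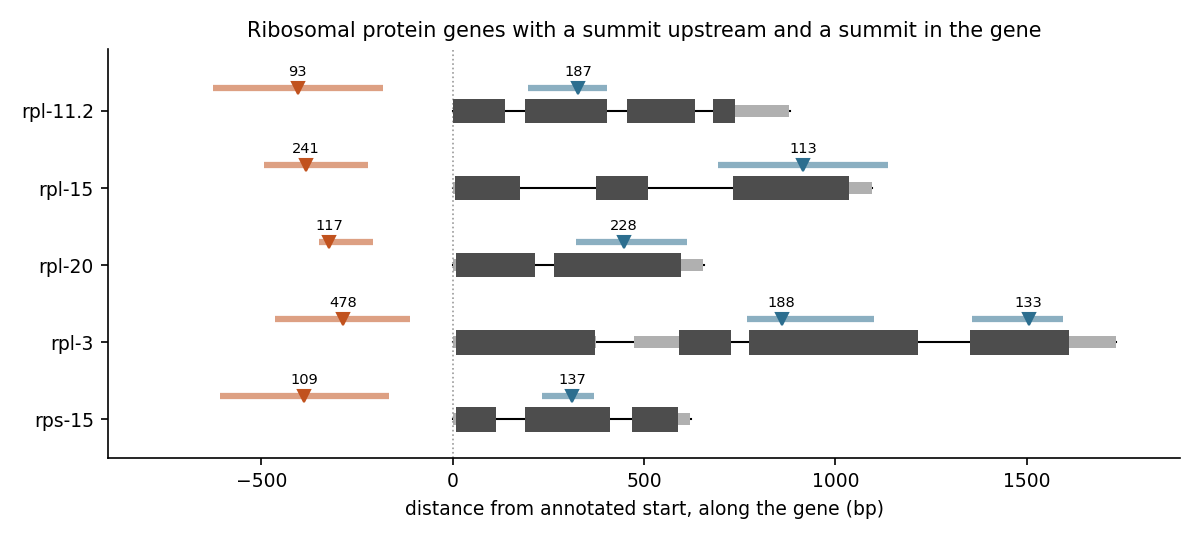
The 5 ribosomal protein genes with a conservative summit both upstream and in the gene, drawn to scale along the distance from the annotated start (horizontal axis, bp). Dark boxes are coding exons, light boxes other exon parts, horizontal bars the authors' peaks, triangles their summits and numbers their conservative signals; upstream summits lie between 287 and 405 bp from the start, and rpl-3 has 2 further summits in the gene.

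Inside the genes, summits lay late rather than early. The median summit stood at 67.7% of the gene length (quartiles 49.7 and 73.9%), and 25 of 34 (73.5%) lay past the middle. Over the 918 gene summits of all protein-coding genes up to 2000 bp long, which include these, the median was 55.7% and 57.2% lay past the middle. The median GC content within 100 bp of the summits inside genes was 53.5%, where it was 55.7% over those 918 summits. Small nucleolar RNA genes, which in animals often sit in introns of ribosomal protein genes, did not mark the genes with peaks. Of 13 genes that hold a snoRNA, 7 had a conservative summit, as did 33 of the 68 others, and in 2 of the 7 (rpl-7A and rps-12) the summit lay within 200 bp of the snoRNA. The stretches around the summits of rla-2 and rpl-7A are shown as examples of such sites, 50 bases to each side, read along the gene from the ce11 (WBcel235) assembly. Capitals mark the 11 bases at the summit.
rla-2, chrIV:13369591-13369691, minus strand: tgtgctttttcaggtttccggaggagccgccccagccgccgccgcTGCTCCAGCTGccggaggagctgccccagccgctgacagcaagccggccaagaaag
rpl-7A, chrIV:4389554-4389654, minus strand: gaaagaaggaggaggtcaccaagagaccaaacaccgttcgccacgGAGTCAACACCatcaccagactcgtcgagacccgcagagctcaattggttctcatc

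Upstream summits of the conservative list were placed within a narrow range. Of the 13, 12 lay between 450 and 200 bp upstream of the annotated start, where 26.4% of the upstream summits of all genes lay. The exception was rps-29, at 558 bp. None of the 13 lay within 200 bp of the start, where 20% of the upstream summits of all genes lay. The range was wider in the list of replicate 2. There 14 of 21 upstream summits (66.7%) lay from 450 to 200 bp upstream, where 28.9% did over all genes. Of the others, 1 lay from 200 to 100 bp upstream and 1 within 100 bp. In the list of replicate 1 it was 6 of 6, where 26.7% did over all genes. Counted per gene, 13 of the 81 genes (16%, background 5.81%) had a conservative summit upstream, but 6 had one in replicate 1 (7.41%, background 5.49%) and 21 in replicate 2 (25.9%, background 5.15%). The upstream peaks thus rest mainly on replicate 2. Within 200 bp past the start, 6 more genes had their summit, so that a window from 1000 bp upstream to 200 bp downstream gave 19 genes (23.5%, background 6.99%), with 14 in replicate 1 and 28 in replicate 2 (background 6.74% and 6.05%) and 30 in the second whole-series list (background 8.48%).

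The same interval held a larger share of upstream summits than over all genes in the ranked lists of both replicates as well. Those lists hold the stronger peaks together with weaker candidates. A ranked summit lay upstream of 47 genes in replicate 1 (58%, background 20.4%) and of 53 in replicate 2 (65.4%, background 25%). In the ranked list of replicate 1, 25 of 54 upstream summits at these genes (46.3%) lay from 450 to 200 bp upstream, where 26.6% did over all genes. In that of replicate 2 it was 33 of 65 (50.8%), where 24.8% did over all genes. Without the genes that have an upstream conservative summit the difference was smaller, and the counts are low. Among the other 68 genes, 14 of 40 ranked upstream summits in replicate 1 (35%, background 26.6%) lay in that interval. In replicate 2 it was 22 of 51 (43.1%, background 24.8%). The interval was chosen after seeing the positions.

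**Figure D4:**
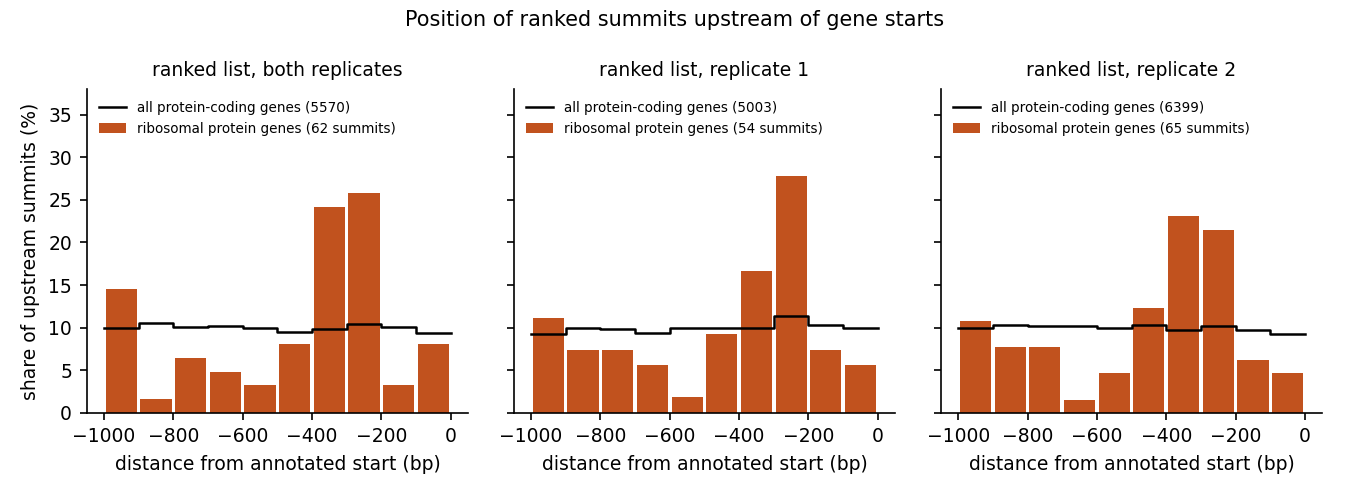
Share of upstream ranked summits (vertical axis, percent) in bins of 100 bp by distance from the annotated start (horizontal axis, bp), in the ranked list that goes with the conservative list and in the ranked list of each replicate. Bars are summits at ribosomal protein genes and the line those at all protein-coding genes; in each panel the highest bars lie in the bins from 400 to 200 bp upstream, while the line is nearly level.

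The sequences of 8 upstream summits are shown, 100 bases to each side, read along the gene from the ce11 (WBcel235) assembly. They are shown because 2 words of 6 bases recur in them, which capitals mark on either strand. The first word is TACGGT, which reads ACCGTA where it lies on the opposite strand. The other word is GAGTGT, which reads ACACTC where it lies on the opposite strand. The last 2 sequences hold neither word. The upstream summits of rpl-7, rpl-41.2, rps-15, rps-19 and rps-29 are not shown. Of these, rps-29 holds both words, rpl-7 TACGGT alone, rps-19 GAGTGT alone, and rpl-41.2 and rps-15 neither.
rpl-3, chrIII:3867467-3867667, plus strand: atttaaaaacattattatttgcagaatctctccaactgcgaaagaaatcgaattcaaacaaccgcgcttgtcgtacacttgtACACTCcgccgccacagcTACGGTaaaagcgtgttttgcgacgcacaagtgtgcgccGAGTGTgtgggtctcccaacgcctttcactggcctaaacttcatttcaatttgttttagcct
rpl-15, chrIV:654859-655059, minus strand: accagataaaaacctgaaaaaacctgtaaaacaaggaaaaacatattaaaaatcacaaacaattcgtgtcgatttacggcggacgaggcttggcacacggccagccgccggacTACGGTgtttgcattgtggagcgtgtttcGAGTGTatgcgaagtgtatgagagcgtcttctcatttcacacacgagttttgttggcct
rpl-20, chrIV:4750001-4750201, minus strand: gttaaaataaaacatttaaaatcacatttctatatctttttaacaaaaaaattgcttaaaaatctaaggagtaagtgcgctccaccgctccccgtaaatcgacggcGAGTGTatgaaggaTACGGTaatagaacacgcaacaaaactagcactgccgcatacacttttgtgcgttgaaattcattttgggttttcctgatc
rps-1, chrIII:4475523-4475723, plus strand: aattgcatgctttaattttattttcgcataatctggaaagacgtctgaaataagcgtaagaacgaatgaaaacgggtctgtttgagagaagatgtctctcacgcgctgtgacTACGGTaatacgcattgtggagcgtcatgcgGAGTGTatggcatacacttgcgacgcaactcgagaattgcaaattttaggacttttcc
rps-23, chrIV:12391206-12391406, minus strand: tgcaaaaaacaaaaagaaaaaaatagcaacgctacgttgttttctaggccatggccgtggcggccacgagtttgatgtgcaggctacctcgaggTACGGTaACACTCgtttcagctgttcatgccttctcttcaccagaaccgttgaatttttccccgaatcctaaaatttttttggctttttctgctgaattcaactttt
rpl-11.2, chrX:2242923-2243123, minus strand: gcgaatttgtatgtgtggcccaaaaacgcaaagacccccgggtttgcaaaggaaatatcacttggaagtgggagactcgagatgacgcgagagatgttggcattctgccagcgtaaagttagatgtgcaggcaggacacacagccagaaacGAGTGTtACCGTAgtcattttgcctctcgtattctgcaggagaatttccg
rps-24, chrIV:385437-385637, plus strand: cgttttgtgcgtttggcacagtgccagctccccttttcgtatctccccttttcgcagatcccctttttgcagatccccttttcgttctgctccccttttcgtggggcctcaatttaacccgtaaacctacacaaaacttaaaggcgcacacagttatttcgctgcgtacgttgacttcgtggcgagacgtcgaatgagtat
rps-28, chrIV:1659162-1659362, plus strand: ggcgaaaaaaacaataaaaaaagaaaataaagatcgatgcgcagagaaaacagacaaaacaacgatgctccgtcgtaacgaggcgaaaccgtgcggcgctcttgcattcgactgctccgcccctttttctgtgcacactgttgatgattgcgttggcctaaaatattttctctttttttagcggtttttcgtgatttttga

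Both words were chosen after seeing the data, from all words of 6 bases that occurred, on either strand, within 100 bp of at least 8 of the 13 upstream summits. TACGGT was within 100 bp of 8 upstream summits (rpl-3, rpl-7, rpl-11.2, rpl-15, rpl-20, rps-1, rps-23 and rps-29), and of 53 of 698 upstream summits of other genes outside genes (7.59%). GAGTGT was at 8 as well (with rps-19 in place of rpl-7), and at 117 of the 698 (16.8%). At summits inside ribosomal protein genes each word was found at 0 of 34, and at summits inside other genes TACGGT was at 4.77% and GAGTGT at 7.31%, so both shares are low. The other 6 words that reached this limit were runs rich in A or T. A match is a description of the sequence and not a binding site.

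The words did not follow the peaks alone. From 450 to 200 bp upstream of the start, TACGGT was present at 30 of the 81 genes (37%) and at 7.45% of all genes. It was present at 23 of the 68 ribosomal protein genes with no upstream conservative summit (33.8%). GAGTGT was present at 21 of the 81 (25.9%), at 14 of the 68 (20.6%) and at 8.11% of all genes. The stretch from 450 to 200 bp upstream had a median GC content of 38% at ribosomal protein genes and 34% at all genes.

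In some promoters both words stood side by side. The arrangement seen in the sequences of rpl-11.2 and rps-23 above, with both words on opposite strands and 1 base of any kind between them, was at the upstream summits of rpl-11.2, rps-23 and rps-29, and at 4 of the 698 upstream summits of other genes. On the 6 chromosomes this arrangement had 34 matches. Within 1000 bp upstream of the start it was present at 14 ribosomal protein genes (17.3%) and at 44 of all 19973 genes (0.22%). The 44 genes outnumber the 34 matches, so some matches were counted at more than 1 gene. The 14 ribosomal protein genes therefore need not hold 14 separate matches. The 11 of these 14 genes without an upstream conservative summit were rpl-1, rpl-6, rpl-21, rpl-22, rpl-24.1, rpl-29, rpl-34, rps-7, rps-10, rps-13 and rps-18. The sequences of rpl-15 and rps-1 share a stretch of 14 bases between TACGGT and GAGTGT, which had 2 matches on the 6 chromosomes, those at these genes. Both strings were read off the sequences shown, so their presence there is no test.

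Of 7 short motifs searched on both strands within 100 bp of the summits, none was at more than 4 of the 13 upstream. The motif GAGAGA was at 4 of the 13 upstream summits and at 41.7% of the 698. The motif TTTCAG, the consensus of the nematode splice acceptor, was at 4 and at 10.2%. CAGCTG was at 1 upstream summit and at 8.31% of the 698. GCGTCTC was at 1 and at 16%. CACGTG was at 1 and at 4.15%. GGAAG was at 1 and at 41.1%. TATAAA was at 0 of 13 and at 7.45% of the 698. Inside the genes, GGAAG was at 21 of 34 summits (61.8%) and at 48.5% of the summits inside other genes, but within 50 bp it was at 9 (26.5%) and at 28.1%, which turns the direction. No motif searched contains another.

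Upstream and gene summits also differed in base composition and between replicates. The median GC content within 100 bp was 45.3% upstream (36.8 to 55.2) and 53.5% in genes (44.3 to 59.7). At 12 upstream summits found in both ranked lists the ratio of replicate 2 to replicate 1 had a median of 1.89 (0.656 to 5.62), where it was 1.05 at the upstream summits of all genes outside genes. It was over 1 at 11 of the 12 (91.7%), where it was over 1 at 52.2% of those of all genes. At 32 summits inside genes the median was 0.855 (0.327 to 2.88), where it was 0.72 over all genes. It was over 1 at 9 of the 32 (28.1%), near the 30.2% of all genes. The largest ratios were at rps-19, rps-24 and rpl-3, with 5.62, 4.04 and 3.63. In the replicate lists, 6 of the 13 upstream summits were matched in replicate 1 (46.2%) and 11 in replicate 2 (84.6%), where 74.5% and 74.4% of the upstream summits of all genes outside genes were. Of the 34 in genes 27 (79.4%) and 19 (55.9%) were, near the 78.4% and 61.6% over all genes.

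Over all genes the ratio moved with GC content. At upstream summits outside genes its median was 1.77 under 45% GC, 1.93 from 45 to 50%, 1.21 from 50 to 55% and 0.654 at 55% or more. The 5 upstream summits of ribosomal protein genes under 45% GC had a median of 1.62, and the 5 measured in both replicates from 45 to 50% had 3.63. At the summits inside ribosomal protein genes the median was 0.75 from 45 to 50% (4 summits), 0.955 from 50 to 55% (16) and 0.617 at 55% or more (12). Position and GC content moved together at these summits, and their parts in the difference between the replicates were not tested.

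**Figure D5:**
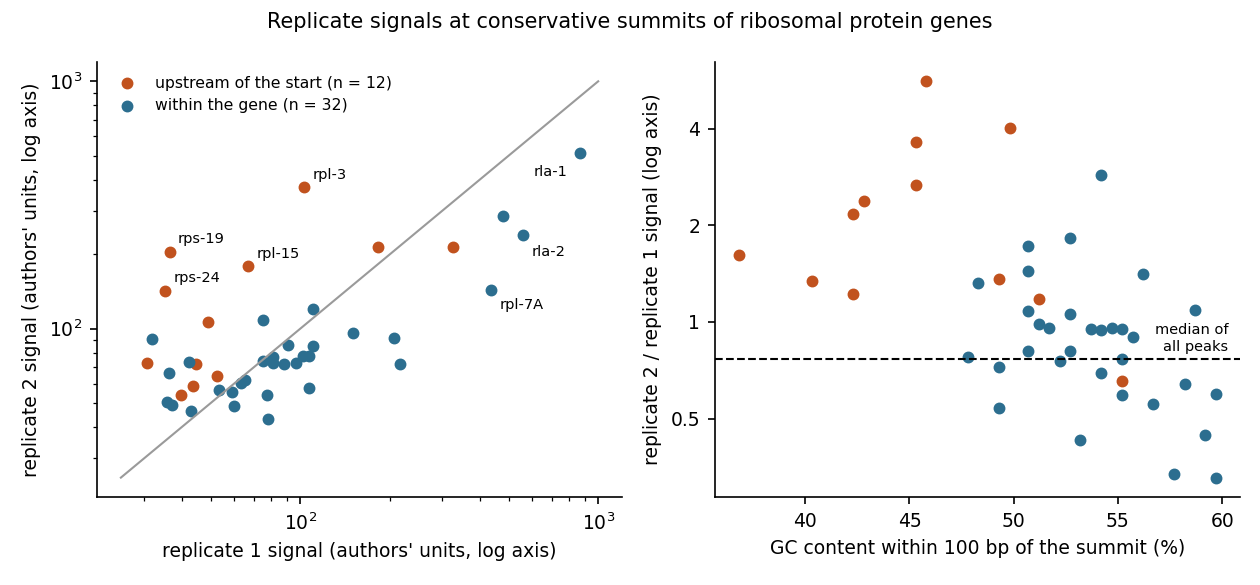
Left, signal of replicate 2 against that of replicate 1 (both in the authors' units on log axes) at the conservative summits of ribosomal protein genes found in both ranked lists, 12 upstream and 32 inside genes, with the line of equal signals. Right, ratio of replicate 2 to replicate 1 (log axis) against GC content within 100 bp of the summit (percent), with the median of all conservative peaks, 0.768, as a dashed line; upstream summits have less GC and higher ratios (median 1.89) than those inside genes (0.855).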

How the data were processed

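The 8 peak lists used here are on the ce11 build (the same assembly as WBcel235): a thresholded and a ranked list for each replicate, and 2 such pairs made from both replicates. Per the deposited readme they derive from filtered alignments and a control. The sources used here give neither the aligner nor the peak caller. The deposited signal of a peak comes from the authors' caller, on a scale they do not state there, and its deposited score is a scaled measure of reproducibility with a highest value of 1000. In the thresholded lists the lowest score was 830. In the whole-series ranked lists 4 columns of per-library signals were not used, because they name no sample. Replicate signals come from each replicate's ranked list, from a summit within 100 bp of the conservative one.

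Genes are those of Ensembl release 115 on 6 chromosomes, and sequences were read from the RefSeq assembly of the same build. Summits were assigned to gene windows and base composition and motifs counted in Python 3.11.15 with numpy 2.4.6, pandas 2.3.3, scipy 1.17.1 and matplotlib 3.10.9. The assignment was tested on simulated peaks. Shares have exact Clopper-Pearson 95% intervals, which cover counting error only. Depth is unknown. No test was made, because there is 1 group of 2 replicates. The genes and lists, and the words and intervals, were chosen with earlier results of these data known. Given in full are the 12 genes with the highest conservative signal, all rla- genes and all pairs of genes whose names share a number. The 3 highest of each comparison list and every other gene with a summit are given by name. Alternatives changed the peak list, threshold, window and overlap rule.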

Additional observations from a re-analysis of the deposited data

How the results depend on the processing

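Of the alternatives, 64 left a value within its limit (for counts, 1.5 times) and 51 moved it. Keeping the 50% of conservative peaks with the highest signal gave 18 ribosomal protein genes (22.2%) and 2044 of all genes (10.2%). It gave 12 of 47 rpl- and 3 of 31 rps- genes, 4 of 70 mitochondrial and 6 of 36 biogenesis genes. At the gene start it gave 9 ribosomal protein genes (11.1%, where all genes had 3.77%). The ranked list gave 76 ribosomal protein genes (93.8%) and 8300 of all genes (41.6%). In the same order as above, it gave 42 rpl-, 31 rps-, 36 mitochondrial and 29 biogenesis genes. It also gave 49 of 72 translation factor and tRNA synthetase genes. At the gene start it gave 61 ribosomal protein genes (75.3%, where all genes had 25.4%). Summits in no other gene's window left 17 genes (21%, where the rule gave 12.8% of all genes). A window of 1000 bp to each side of the start gave 42 of 81 ribosomal protein genes and 2198 of all 19973 genes. The second whole-series list gave 48 genes, 30 at the gene start (8.48% of all genes), 9 tRNA synthetase genes and a median signal of 154.3. With 1 replicate's list alone the rps- count ran from 8 to 16 and the median signal from 91.5 to 96.5. The other counts stayed within 1.5 times there, and the causes were not tested. Among the conservative upstream summits this limit was passed, with 6 genes in replicate 1 and 21 in replicate 2. Depth is unknown, and a gene without a summit in a thresholded list may hold a ranked candidate below the limit. No paired analysis was possible because the samples form a single group.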
